A study of Mus musculus with 34 samples.

Results

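Interleukin-1 signalling is one of the first inflammatory circuits engaged in the injured heart, and 10 of its genes were followed here in mouse left ventricle after myocardial infarction (MI). The genes were taken by symbol: the cytokines Il1b, Il18 and Il33, the antagonist Il1rn, the receptor chains Il1r1, Il1rap and Il1rl1, the decoy receptor Il1r2, and the inflammasome genes Nlrp3 and Casp1. All 10 were present, once each, among the 14552 genes of the table of 10 uninjected hearts and among the 17406 genes of the table of 24 further hearts. Every animal was a CFW mouse, an outbred strain, with no age given in the labels, and infarcts were made by permanently tying off the left anterior descending (LAD) artery. The uninjected hearts were 3 sham (titled Sham, although another label of the same samples says no operation), 3 MI at 4 h and 4 MI at 24 h. The second table held 2 sham-operated hearts labelled 4 h with no injection, and infarcted hearts given modRNA (chemically modified messenger RNA) at the infarct border straight after ligation. The modRNA was luciferase (Luc, the control) in 4 hearts at 4 h, 3 at 24 h and 4 at 48 h, and a construct labelled AC, which the labels do not spell out, in 4, 3 and 4 hearts at the same times. An infarcted heart without injection was not part of the second table, so the Luc groups differ from sham both by the infarct and by the injection. The Luc 24 h and 48 h hearts differ from these 4 h sham hearts by time as well.

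As background, pro-IL-1β and pro-IL-18 are made as inactive precursors and are cut by caspase-1, which the NLRP3 inflammasome activates. IL-1β binds IL1R1, which recruits the shared accessory chain IL1RAP and signals through MYD88 to NF-kB. Il1rn encodes a ligand that occupies IL1R1 without signalling, and IL1R2 binds IL-1β but lacks the signalling domain. IL-33, an alarmin stored in nuclei, acts through the ST2 receptor encoded by Il1rl1. Messenger RNA was measured here, so the processing of the cytokines is outside these data.

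Levels are in CPM, read counts normalised by the authors. Library sums were not equal, at 568058 to 662286 CPM in the uninjected hearts and 508204 to 818456 CPM in the modRNA table. Differences are on the log2(CPM + 1) scale from limma. Their p-values were adjusted over all genes of a table by the Benjamini-Hochberg method, with a threshold of 0.05. A gene entered the test when its mean over a table reached 1 CPM: 9 members in the uninjected hearts (Il1rl1 fell short, with a mean of 0.929 CPM) and 8 in the modRNA hearts (Il18 and Il1rl1 fell short, at 0.712 and 0.603 CPM). A member that passed this filter through its 24 h libraries alone had to differ from sham, so the counts below describe the members and do not stand for all 10. The counts over gene lists below have the same limit. The tables were normalised separately and levels are compared only within one. Libraries were not of uniform cell content. Summed neutrophil markers (10 listed, 9 of them in the table) were 1.98 to 3.64 CPM in sham, 7.82 to 31.9 at MI 4 h and 308 to 1928 at MI 24 h, with library G the lowest at 24 h. In the modRNA table they ran from 3.36 to 21.5 CPM in sham, 77.6 to 164 at Luc 4 h, 63.0 to 112 at Luc 24 h and 135 to 429 at Luc 48 h. Cardiomyocyte markers were abundant in every library, from 21650 CPM at MI 24 h to 78159 CPM at Luc 24 h, which marks heart muscle but does not separate ventricle from atrium. Atrial markers (4 listed, 3 of them in the first table) summed to 80.5 to 296 CPM in sham, 111 to 181 at MI 4 h and 1150 to 1822 at MI 24 h, and in the modRNA table to 60.7 to 117 in sham, 109 to 171 at Luc 4 h, 362 to 603 at Luc 24 h and 533 to 1169 at Luc 48 h. Of the atrial markers tested, 1 of 2 was higher than sham at MI 24 h, 4 of 4 at Luc 24 h (median difference 4.15) and 3 of 4 at Luc 48 h. Over all genes 35.6%, 25.3% and 13.7% were called higher in these comparisons. The part of atrial markers in the results was not tested. In bulk tissue, fewer cells of a type and less RNA per cell cannot be told apart.

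The stretches upstream of the cytokine, its sensor and its protease (Il1b, Nlrp3 and Casp1) are printed here, since motifs of inflammatory transcription factors can be read directly from them. Each is the 250 bases before a RefSeq transcript start (GRCm38.p6), 5′ to 3′ on the gene's strand, and none overlaps an annotated exon. Capitals mark matches on either strand to 4 motifs: NF-kB (GGG, any 5 bases, CC), AP-1 (TGANTCA), ETS (GAGGAA) and STAT (TTCNNNGAA). The windows lie at chr2:129371140-129371389 (minus strand) for Il1b, chr11:59542436-59542685 (plus strand) for one of the Nlrp3 starts, and chr9:5298267-5298516 (plus strand) for Casp1.
Il1b: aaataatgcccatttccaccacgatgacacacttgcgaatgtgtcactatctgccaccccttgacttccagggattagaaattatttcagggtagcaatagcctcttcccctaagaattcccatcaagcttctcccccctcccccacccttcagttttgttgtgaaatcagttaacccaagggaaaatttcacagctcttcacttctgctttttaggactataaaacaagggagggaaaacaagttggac
Nlrp3: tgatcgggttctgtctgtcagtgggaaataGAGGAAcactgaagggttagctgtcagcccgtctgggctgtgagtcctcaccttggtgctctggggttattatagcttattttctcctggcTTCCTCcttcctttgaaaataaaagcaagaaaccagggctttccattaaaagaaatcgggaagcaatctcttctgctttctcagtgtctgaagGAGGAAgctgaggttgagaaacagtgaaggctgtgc
Casp1: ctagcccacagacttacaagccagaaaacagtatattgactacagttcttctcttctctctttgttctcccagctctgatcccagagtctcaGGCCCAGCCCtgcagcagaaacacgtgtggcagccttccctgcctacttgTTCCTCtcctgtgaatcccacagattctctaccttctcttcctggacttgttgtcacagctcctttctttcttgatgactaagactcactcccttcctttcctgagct

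The Nlrp3 window held 3 ETS matches, and the Casp1 window held an NF-kB match 158 to 149 bases and an ETS match 108 to 103 bases before the start. The Il1b window held none of the 4 letter patterns, which says only that these letters were not in this stretch. Of 32851 promoters of the same length, 45.8% held the NF-kB pattern, 6.75% the AP-1, 23.3% the ETS and 7.02% the STAT pattern. All 10 members had an entry, with 16 starts between them, and 8 of these starts held no match. Some other windows overlap an exon of the gene and are not printed. Among them, the most upstream Il1rn start had an AP-1 match 141 to 135 bases and an NF-kB match 54 to 45 bases before it. Another Il1rn start had an NF-kB match 51 to 42 bases before it. The other Nlrp3 start had an NF-kB match on both strands 186 to 177 bases before it. Il1r2 had a STAT match, the same letters on both strands, 111 to 103 bases before it. The Il1rap window held 9 NF-kB matches over both strands, several of them overlapping. Outside these windows, an Il1r1 start that is not printed had an NF-kB match 232 to 223 bases before it.

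Il1b, the main secreted agonist of the family, rose at both times. Its gene lies at chr2:129364578-129371139 in mm10, on the minus strand. In the uninjected hearts it measured 0.289, 0.484 and 0.455 CPM in sham, 4.02, 7.61 and 5.38 CPM at MI 4 h, and 101, 86.2, 35.9 and 94.7 CPM at MI 24 h. The 3 groups did not overlap, and library G was the low one at 24 h. The increase over sham was 2.21 ± 0.33 (log2, SE) at 4 h (adjusted p = 0.0051, limma) and 5.74 ± 0.31 at 24 h (adjusted p = 1.7e-07, limma). As a ratio of mean CPM, MI 24 h stood 194-fold (SD 88.1) above sham, and the increase from MI 4 h to MI 24 h was 3.53 ± 0.31 (adjusted p = 4.5e-06, limma). If the lowest value above 0 in a library is taken as 1 read, the sham values rest on about 8, 12 and 14 reads.

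Il1rn, the antagonist, passed the test at 24 h. It was at 0.181, 0.403 and 0.162 CPM in sham, 1.05, 3.97 and 0.774 CPM at MI 4 h, and 106, 91.8, 40.6 and 92.1 CPM at MI 24 h. The 3 groups were again separate. At 4 h the difference from sham was 1.08 ± 0.40 (adjusted p = 0.21, limma), short of the threshold. Library D was the high one of the 3. With a pseudocount of 0.1 instead of 1 the 4 h difference passed (2.26, adjusted p = 0.049, limma). At 24 h Il1rn rose by 5.98 ± 0.37 (adjusted p = 3.5e-07, limma), 332-fold (SD 213) by mean CPM. Its sham values rest on about 5, 10 and 5 reads by the same estimate, so the fold is imprecise.

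The order of the pair can be read as the ratio of Il1rn to Il1b CPM within each library, a description that carries no test and that is not corrected for transcript length. It was 0.357 to 0.833 in sham, where both genes had few reads, 0.144 to 0.522 at MI 4 h and 0.972 to 1.13 at MI 24 h. In the modRNA table it was 0.462 and 0.722 in sham, 0.193 to 0.253 at Luc 4 h, 0.491 to 0.818 at Luc 24 h and 1.16 to 1.73 at Luc 48 h. The 4 h Luc libraries were thus below both sham libraries, and the 3 Luc times did not overlap each other. The AC hearts ran from 0.134 to 0.47 at 4 h, 0.76 to 1.23 at 24 h and 1.01 to 2.43 at 48 h, overlapping the Luc range at each time.

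**Figure D1:**
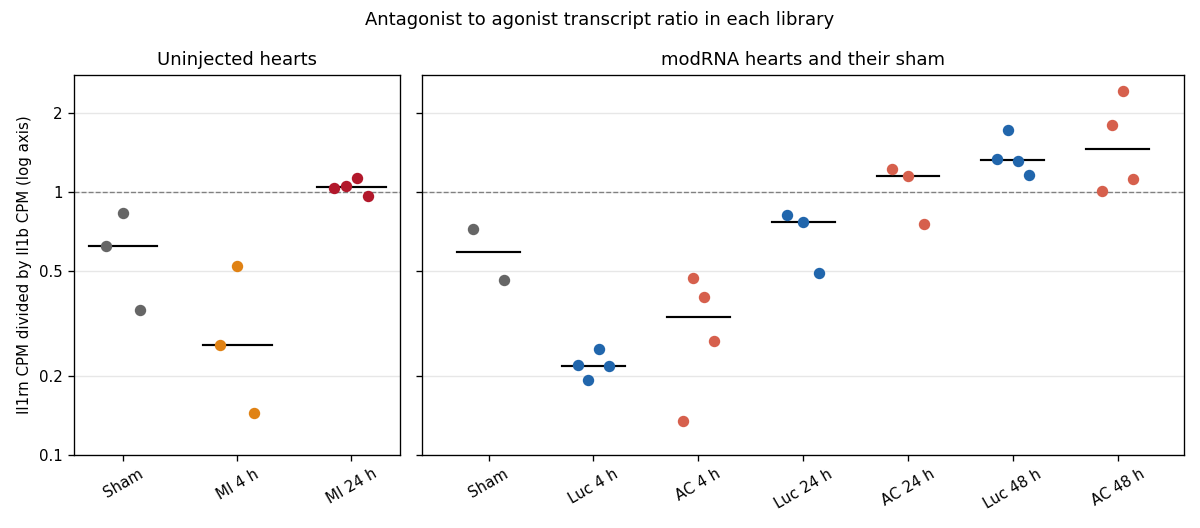
Ratio of Il1rn CPM to Il1b CPM (vertical, log axis) in each library, by group (horizontal), with 1 point per library and a line at the group median. The group median was lowest at 4 h in both tables, 0.262 at MI 4 h and 0.218 at Luc 4 h, and stood above 1 at MI 24 h (1.05) and at Luc 48 h (1.33).

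Il1r2, the decoy receptor, covered the widest range of the 10. Its sham values of 0.108, 0.0403 and 0.0325 CPM correspond to about 3, 1 and 1 reads, if the lowest value above 0 in a library is taken as 1 read, so no fold against sham is given for it. At MI 4 h it measured 0.564, 2.15 and 1.43 CPM and at MI 24 h 102, 146, 21.5 and 63.0 CPM. The groups did not overlap, and G was again lowest. The difference from sham was 1.11 ± 0.54 at 4 h (adjusted p = 0.33, limma; 3.07 with adjusted p = 0.025 at a pseudocount of 0.1) and 6.01 ± 0.50 at 24 h (adjusted p = 2.2e-06, limma). Between the MI times it rose 60.1-fold (SD 51.8). Neutrophil markers, whose cells are known to carry this receptor, had the same library order at 24 h except that C and D changed places. Their part in the result was not tested.

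Of the signalling receptor chains, Il1r1 rose at both times and Il1rap at 24 h. Il1r1, the ligand-binding chain, measured 8.58 to 10.8 CPM in sham, 16.1 to 29.6 at MI 4 h and 27.9 to 36.2 at MI 24 h. It was up at 4 h already (1.01 ± 0.21, adjusted p = 0.029, limma), 2.20-fold (SD 0.858), with no overlap with sham. That early call was lost without sham library H or I (adjusted p = 0.14 and 0.12, limma) and with the library letter as a replicate block (adjusted p = 0.095, limma). At 24 h it rose by 1.63 ± 0.19 over sham (adjusted p = 2.3e-05, limma). Il1rap, the accessory chain, did not pass at 4 h, with 3.46 to 3.90 CPM in sham and 3.36 to 4.02 at MI 4 h (difference 0.02 ± 0.29, adjusted p = 0.98, limma). It then reached 10.1 to 27.2 CPM at 24 h, 1.98 ± 0.27 over sham (adjusted p = 6.4e-05, limma).

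The other cytokines and Nlrp3 passed at 24 h and not at 4 h. Il33 was at 1.27 to 4.68 CPM in sham, 2.78 to 8.23 at MI 4 h and 14.7 to 37.9 at MI 24 h, a 24 h increase of 2.65 ± 0.42 (adjusted p = 2.0e-04, limma). Il18 stayed at 0.13 to 0.263 CPM in the sham and MI 4 h libraries and reached 1.49 to 3.49 CPM at 24 h, 1.49 ± 0.21 above sham (adjusted p = 7.4e-05, limma). Nlrp3, the sensor, overlapped between sham (0.39 to 1.08 CPM) and MI 4 h (0.677 to 1.53 CPM). It stood at 24.3, 20.4, 7.93 and 17.3 CPM at 24 h, 25.2-fold (SD 16.4) over sham (3.37 ± 0.31, adjusted p = 3.9e-06, limma).

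Casp1, the protease, changed least of the tested members at 24 h. It measured 1.74 to 3.43 CPM in sham, 1.69 to 2.25 at MI 4 h and 2.66 to 6.87 at MI 24 h, and sham and MI 24 h overlapped through library G. The increase of 0.71 ± 0.25 passed the threshold (adjusted p = 0.025, limma). It did so no longer without MI 24 h library C or D or without sham library D or I, where adjusted p ran from 0.063 to 0.11. Il1rl1, the IL-33 receptor, was untested by the filter, with 0.552 to 0.651 CPM in sham, 0.489 to 1.24 at MI 4 h and 0.926 to 2.14 at MI 24 h. With no filter its 24 h difference was 0.48 ± 0.18 (adjusted p = 0.04, limma). The highest value was that of library C, and without it the difference was 0.32 ± 0.15 (adjusted p = 0.086, limma). It did not pass without sham library D, H or I either (adjusted p = 0.073, 0.086 and 0.1, limma).

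**Figure D2:**
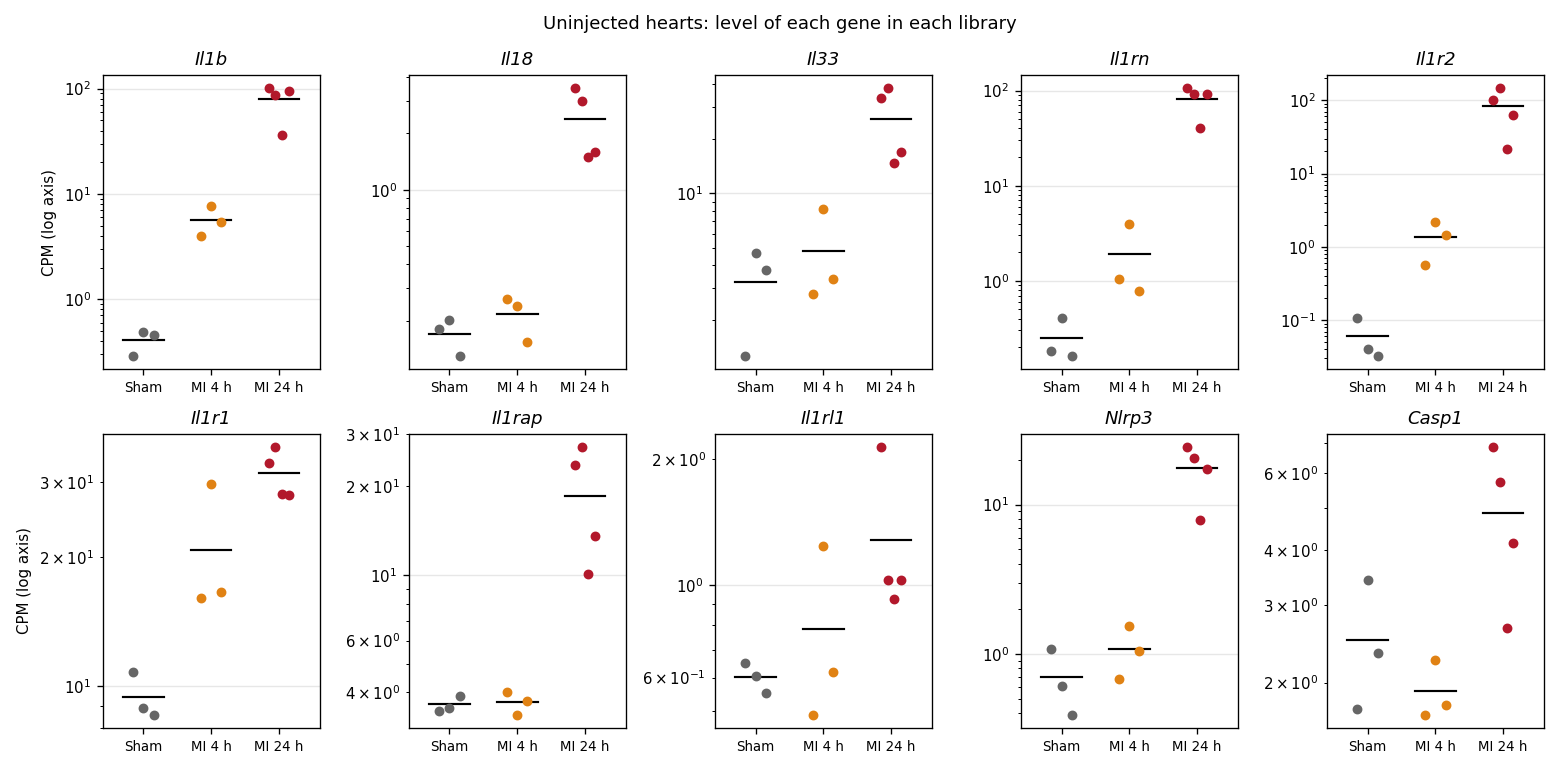
Level of each of the 10 genes (vertical, CPM on log axes that differ between panels) in the uninjected hearts, by group (horizontal), with 1 point per library and a line at the group mean. For Il1b, Il1rn and Il1r2 the 3 groups are separate, for Il33, Il18, Il1rap and Nlrp3 only MI 24 h stands apart, and for Casp1 sham and MI 24 h overlap.

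Counted over the tested members, 2 of 9 rose at MI 4 h (Il1b and Il1r1) and none fell, against 1.55% of 12487 genes called higher and 0.817% called lower (194 and 102 genes; 167 and 175 under equal-total scaling). Their median difference was 0.44, beside -0.03 over all genes. At MI 24 h 9 of 9 rose over sham, where 35.6% of genes were called higher and 30.3% lower, with median differences of 2.65 over the members and 0.04 over all genes. From MI 4 h to MI 24 h 9 of 9 rose too, where 37.2% were called higher and 26.7% lower (medians 2.21 and 0.10). In that step the smallest increase was that of Il1r1 (0.62 ± 0.19, adjusted p = 0.015, limma), and it was lost without MI 4 h library C or E (adjusted p = 0.077 and 0.073, limma). These comparisons share samples, so their counts are not independent of each other. Il18, Nlrp3 and Il1r2 passed the filter only through their MI 24 h libraries, so their 24 h rise was built in. Their means were 0.171, 0.693 and 0.0604 CPM in sham and 0.219, 1.08 and 1.38 CPM at MI 4 h. The 9 of 9 counts therefore describe the members and are no test of the family.

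The rest of the pathway was read from lists. Of 15 genes known to respond to IL-1, 12 were already higher at MI 4 h and 15 at MI 24 h, with median differences of 2.13 and 4.17. At 24 h the largest were the siderophore-binding protein gene Lcn2 (6.78 ± 0.40, adjusted p = 2.9e-07, limma), the neutrophil chemokine Cxcl2 (5.47 ± 0.35) and the monocyte chemokine Ccl2 (5.30 ± 0.17). Many stimuli besides IL-1 induce these genes. Of 18 IL-1 receptor signalling genes none passed at 4 h, though Map3k8 came nearest of those named here (0.96 ± 0.26, adjusted p = 0.096, limma). At 24 h 10 rose and 3 fell (median 0.44), led by the adaptor Myd88 (1.89 ± 0.17), the kinase Map3k8 (1.80 ± 0.24) and the inhibitory kinase-like Irak3 (1.43 ± 0.27). Of 21 other inflammasome genes listed, 20 were present and 15 tested. None of these passed at 4 h and 12 rose at 24 h, among them the pyrin gene Mefv (3.90 ± 0.27), Nlrp12 (2.47 ± 0.33) and the caspase Casp4 (2.41 ± 0.30). Of 17 other IL-1 ligands and receptors listed, 7 were present and 6 tested. At 24 h 5 of these 6 rose, with Il1f9 (3.91 ± 0.41), the IL-18 receptor chain Il18rap (3.90 ± 0.54) and Il1a (1.83 ± 0.25) in front. The remaining 1, the inhibitory receptor Sigirr, fell (-0.43 ± 0.14). Of the neutrophil markers tested 6 of 6 rose at 24 h and 0 of 6 passed at 4 h. Some listed genes passed the filter through their MI 24 h libraries alone, so that their rise was built in. Il1f9 had means of 0.0363 CPM in sham, 0.281 at MI 4 h and 16.8 at MI 24 h, and Mefv 0.0606, 0.182 and 15.8. Nlrp12, Il1a, Il18rap and the IL-1 target gene Saa3 were alike in this. Il18rap had means of 0.315 CPM in sham, 0.548 at MI 4 h and 24.9 at MI 24 h, and Saa3 0.0873, 0.566 and 40.1. These are examples and not all such genes. The 24 h counts therefore only describe the lists, where 35.6% of all genes were called higher and 30.3% lower. At MI 4 h 1.55% of all genes were called higher.

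Other cell markers moved between these groups as well. Monocyte and macrophage markers summed to 127 to 207 CPM in sham, 158 to 191 at MI 4 h and 451 to 942 at MI 24 h, where 7 of 10 were higher than sham. Cardiomyocyte markers went from 43311 to 46078 CPM in sham to 21650 to 35157 at MI 24 h, with 3 of 8 lower and 1 higher. Mast cell markers went from 4.48 to 7.38 CPM to 15.2 to 24.1, and lymphocyte markers from 1.84 to 3.67 CPM to 7.09 to 11.1. Of the fibroblast and endothelial markers 4 of 8 each were lower at MI 24 h, and 2 of the 8 endothelial ones higher. At MI 4 h erythroid markers stood at 435 to 751 CPM against 161 to 247 in sham, with 4 of 5 higher. The part of these lists in the members' differences was not tested.

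In the modRNA hearts Il1b was above sham at every time. Sham was at 1.17 and 1.24 CPM, Luc 4 h at 18.7, 13.1, 15.3 and 12.9 CPM, Luc 24 h at 22.6, 10.2 and 8.62 CPM, and Luc 48 h at 11.4, 8.82, 11.5 and 7.55 CPM. Every Luc library was above both sham libraries. Luc 24 h overlapped each of the other times, and Luc 48 h lay wholly below Luc 4 h. The differences from sham were 2.84 ± 0.33 at 4 h (adjusted p = 2.2e-05, limma), 2.63 ± 0.35 at 24 h (adjusted p = 9.3e-06, limma) and 2.27 ± 0.33 at 48 h (adjusted p = 3.6e-05, limma). From 4 to 24 h Il1b differed by -0.22, with a 95% interval from -0.82 to 0.39 and adjusted p = 0.61 (limma). The corresponding step in the uninjected hearts was the 3.53 given above. The tables were normalised separately, and the difference between them was not tested.

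Il1rn reached its highest Luc mean at 48 h. It was at 0.847 and 0.571 CPM in sham, 2.53 to 4.12 at Luc 4 h, 4.23 to 18.5 at Luc 24 h and 9.98 to 15.3 at Luc 48 h. All Luc groups were above sham, and Luc 24 h overlapped Luc 48 h. The difference from sham was 1.33 ± 0.51 at 4 h (adjusted p = 0.25, limma), 2.50 ± 0.54 at 24 h (adjusted p = 0.0013, limma) and 3.07 ± 0.51 at 48 h (adjusted p = 1.5e-04, limma). The step from 4 to 24 h, 1.18 ± 0.45, missed the threshold narrowly (adjusted p = 0.05003, limma; 0.019 without Luc 24 h library D).

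Il1r2 was highest, and most uneven, at 48 h. Sham measured 0.782 and 0.159 CPM, Luc 4 h 5.63, 4.74, 5.38 and 3.98 CPM, Luc 24 h 10.2, 4.56 and 4.35 CPM, and Luc 48 h, in the order of replicates 1 to 4, 74.4, 12.6, 42.5 and 7.13 CPM. Replicates 1 and 3 stood far above the other two, and the lowest 48 h library lay inside the 24 h range. Over sham the differences were 2.04 ± 0.62 at 4 h (adjusted p = 0.12, limma), 2.27 ± 0.66 at 24 h (adjusted p = 0.011, limma; 0.081 without sham library 2) and 4.09 ± 0.62 at 48 h (adjusted p = 5.6e-05, limma). The step from 24 to 48 h was 1.82 ± 0.55 (adjusted p = 0.011, limma), and without Luc 48 h libraries 1 and 3 it was 0.60 (adjusted p = 0.31, limma). In the 4 Luc 48 h libraries the neutrophil marker sum was 429, 195, 211 and 135 CPM in the same order. Libraries 1 and 3 were thus highest in both. In the marker sum library 3 was close to library 2 (211 and 195 CPM), while in Il1r2 it was not (42.5 and 12.6 CPM). The part of neutrophil content was not tested here.

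**Figure D3:**
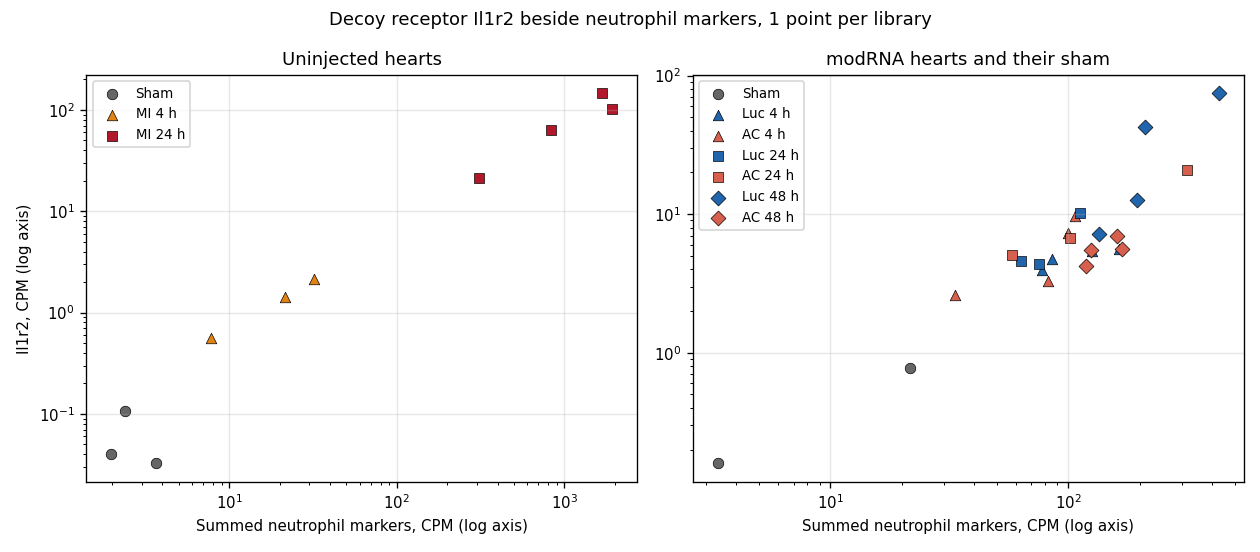
Il1r2 CPM (vertical, log axis) against the summed CPM of neutrophil markers (horizontal, log axis), 1 point per library, for the uninjected hearts (left) and the modRNA table (right). On the left the points of the 3 groups follow one another without overlap on either axis. On the right 2 Luc 48 h libraries, at 42.5 and 74.4 CPM, lie above all others.

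Nlrp3, Il33, Il1r1 and Casp1 had their highest Luc mean at 24 h. Nlrp3 was at 0.293 and 0.539 CPM in sham, 1.66 to 2.40 at Luc 4 h, 15.4, 4.75 and 4.23 at Luc 24 h and 2.63 to 5.21 at Luc 48 h. Library A was the high one at Luc 24 h, and the other values there lay inside the Luc 48 h range. Nlrp3 differed from sham by 2.49 ± 0.41 at 24 h (adjusted p = 1.1e-04, limma) and 1.69 ± 0.39 at 48 h (adjusted p = 0.0027, limma). Il33 was at 3.46 and 5.18 CPM in sham, 7.47 to 17.3 at Luc 4 h, 20.8 to 58.6 at Luc 24 h and 16.9 to 22.1 at Luc 48 h. It rose by 2.94 ± 0.51 at 24 h (adjusted p = 1.8e-04, limma) and by 1.90 ± 0.48 at 48 h (adjusted p = 0.0052, limma; 0.062 without sham library 2). Both genes exceeded sham in every Luc library.

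Il1r1 was at 12.0 and 14.6 CPM in sham, 20.1 to 29.1 at Luc 4 h, 33.1 to 58.2 at Luc 24 h and 18.8 to 28.0 at Luc 48 h. Its 24 h increase was 1.64 ± 0.33 (adjusted p = 6.8e-04, limma), and at 48 h it did not pass (0.77 ± 0.31, adjusted p = 0.067, limma). Casp1 rose at 24 h (1.08 ± 0.24, adjusted p = 0.0016, limma), from 1.84 and 3.06 CPM in sham to 3.72 to 8.69 CPM, and overlapped sham at 48 h (2.46 to 4.24 CPM). Il1rap, at 2.77 and 3.24 CPM in sham, was at 2.48 to 3.54, 4.30 to 5.95 and 4.61 to 7.41 CPM at the 3 Luc times. It passed at 48 h (0.71 ± 0.24, adjusted p = 0.028, limma) and not at 24 h (0.64 ± 0.25, adjusted p = 0.051, limma). The 48 h call was lost without Luc 48 h library 1 or either sham library (adjusted p = 0.078, 0.18 and 0.069, limma), and the 24 h one was gained without Luc 24 h library D (adjusted p = 0.042, limma).

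Of the untested genes, Il18 was at 0.254 to 0.456 CPM in sham, 0.281 to 0.44 at Luc 4 h, 0.47 to 1.06 at Luc 24 h and 0.774 to 1.76 at Luc 48 h. With no filter its 48 h difference from sham was 0.69 ± 0.15 (adjusted p = 0.0021, limma). Il1rl1 stayed between 0.219 and 1.26 CPM across all 24 libraries.

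**Figure D4:**
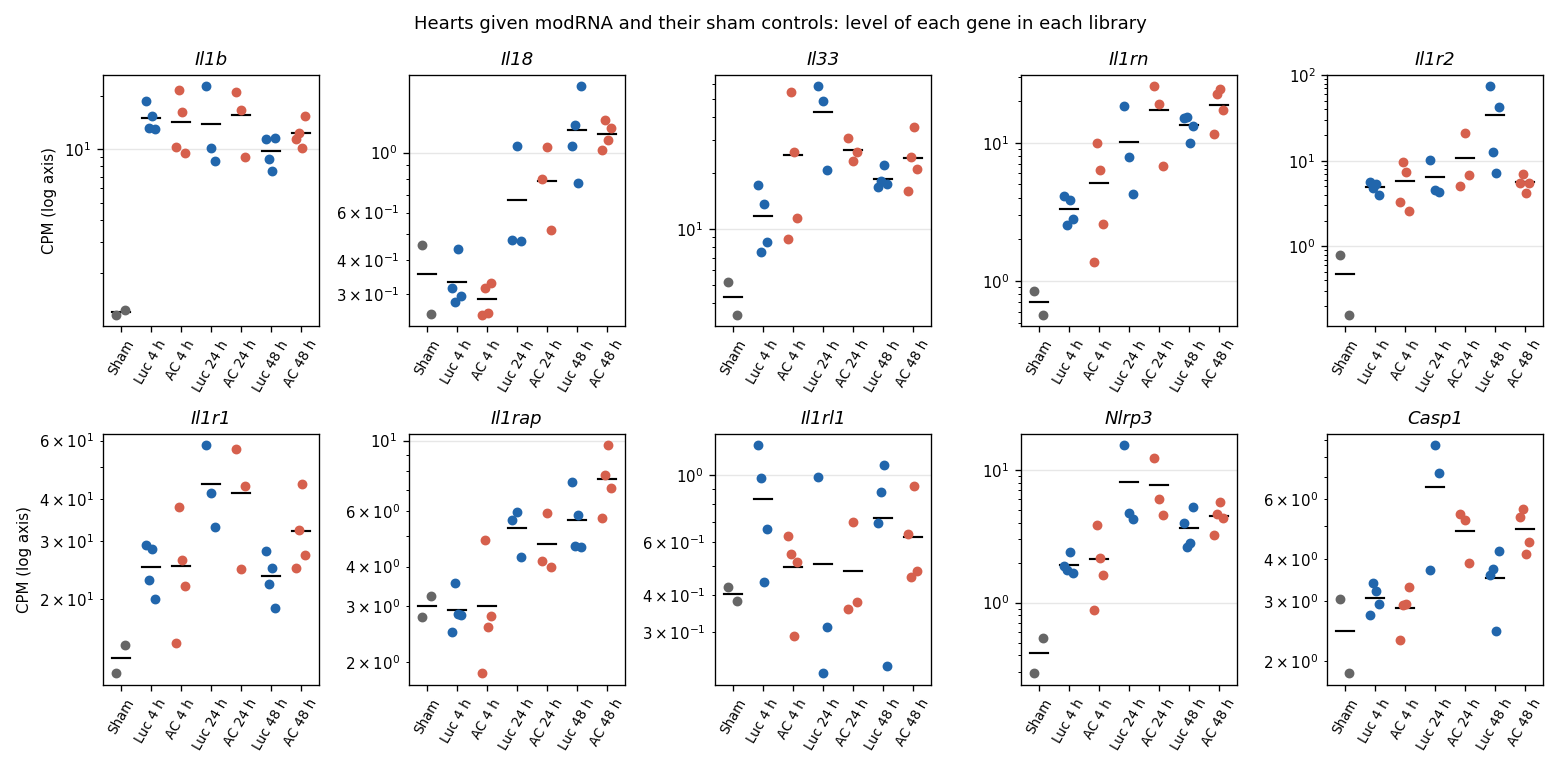
Level of each of the 10 genes (vertical, CPM on log axes that differ between panels) in the modRNA table, by group (horizontal), with 1 point per library and a line at the group mean. Every Luc library of Il1b and Il1rn lies above both sham libraries, Nlrp3 and Il33 have their highest group mean at Luc 24 h, and the Luc 48 h libraries of Il1r2 spread from 7.13 to 74.4 CPM.

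In counts, 1 of 8 tested members rose over sham at Luc 4 h (Il1b), where 1.25% of 12555 genes were called higher and 0.295% lower (157 and 37 genes; 127 and 54 under equal-total scaling). Of the others, 5 had an unadjusted p under 0.05, and fitting the compared groups alone called 6 of 8. With 2 sham libraries the precision of every comparison with sham was low. At Luc 24 h 7 of 8 rose (25.3% of genes called higher, 8.79% lower; 52.8% of calls were higher under median-ratio and 42.5% under equal-total scaling, against 74.2%) and at Luc 48 h 6 of 8 (13.7% higher, 16.4% lower; 66.1% of calls were higher under equal-total scaling, against 45.4%). The median differences of the members were 1.13, 2.38 and 1.79 at the 3 times, beside 0.02, 0.16 and -0.03 over all genes. Monocyte and macrophage markers summed to 164 to 216 CPM in sham and 283 to 412 at Luc 48 h, with 7 of 10 higher, and erythroid markers to 196 to 647 CPM in sham and 1723 to 2581 at Luc 4 h, with 2 of 5 higher. Their part in these counts was not tested.

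From Luc 4 h to Luc 24 h 5 of 8 rose, namely Il33 (1.73 ± 0.43), Nlrp3 (1.44 ± 0.35), Casp1 (0.83 ± 0.20), Il1r1 (0.77 ± 0.28) and Il1rap (0.68 ± 0.21), where 24.5% of genes were called higher and 7.8% lower. Of all calls 75.9% were higher, against 52.4% and 48.2% under median-ratio and equal-total scaling. Under median-ratio or equal-total scaling 3 of the 5 passed, without Il1r1 (adjusted p = 0.11 and 0.16, limma) and Il1rap (adjusted p = 0.058 and 0.12, limma). Il1r1 was lost as well without Luc 4 h library 2 or 4 or Luc 24 h library A or C (adjusted p = 0.07 to 0.18, limma), and Il1rap without Luc 24 h library A or C (adjusted p = 0.059 and 0.069, limma).

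From Luc 24 h to Luc 48 h Il1r2 rose, while Il1r1 (-0.87 ± 0.28, adjusted p = 0.015, limma) and Casp1 (-0.69 ± 0.20, adjusted p = 0.009, limma) fell, where 9.32% of genes were called higher and 32.6% lower. Il33 (-1.04 ± 0.43, adjusted p = 0.054, limma) and Nlrp3 (-0.80 ± 0.35, adjusted p = 0.067, limma) did not pass, nor did Il1b (-0.36), Il1rn (0.56) and Il1rap (0.06). The median over all genes in that step was -0.25. It was -0.03 under median-ratio scaling and 0.18 under equal-total scaling, and neither Il1r1 nor Casp1 passed under them. The split of all calls turned from 1170 higher and 4088 lower to 2003 and 2085 under the first and 3252 and 945 under the second. Il1r1 was lost without Luc 24 h library A (adjusted p = 0.091, limma), Casp1 without C or D (adjusted p = 0.085 and 0.053, limma) and Il1r2 without D (adjusted p = 0.055, limma). The sample titles number the libraries in one run of S numbers for sham and 4 h, in another for 48 h, and not at all for 24 h. Among the modRNA libraries only the 24 h titles carry the letters Br. Time, any such series and what Br stands for therefore cannot be told apart in these steps. The same holds for the differences of Luc 24 h and Luc 48 h from sham.

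The rest of the pathway was counted in the Luc hearts as well. Of 15 IL-1 target genes, 5 were higher than sham at Luc 4 h, 14 at 24 h and 8 at 48 h (median differences 2.01, 4.28 and 1.5). Over all genes 1.25%, 25.3% and 13.7% were called higher than sham at these times, and 0.295%, 8.79% and 16.4% lower. From 24 to 48 h 12 of the 15 fell, where 32.6% of all genes were called lower. Under equal-total scaling that step had 3252 genes higher and 945 lower. Lcn2 went from a mean of 2.70 CPM in sham to 12.7, 528 and 167 CPM. Its libraries ranged from 227 to 1070 CPM at Luc 24 h and from 65.8 to 270 CPM at Luc 48 h, which overlap. Of the 18 signalling genes 1, 8 and 1 were higher and 0, 1 and 5 lower than sham at the 3 times. Myd88 was the one at 4 h (1.19 ± 0.26, adjusted p = 0.015, limma) and also at 48 h (1.01 ± 0.26, adjusted p = 0.0052, limma). Of 14 other inflammasome genes tested (21 listed) 0, 8 and 5 were higher, with Casp4 at a mean of 3.26 CPM in sham and 9.08, 26.3 and 6.19 CPM at the 3 times. Of 5 other ligands and receptors tested (17 listed, 7 present) 0, 2 and 3 were higher.

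AC was compared with Luc at each time to ask whether the construct altered this family. At 4 h 0 of 8 tested members passed and none had an unadjusted p under 0.05, and 1 gene of all (0.00796%) was called higher and 0% lower. Il1b was at 10.3, 21.4, 16.1 and 9.51 CPM in AC against 12.9 to 18.7 in Luc, a difference of -0.12 (95% interval -0.68 to 0.44). The widest difference was that of Il33 (0.77, interval -0.05 to 1.59), where AC library 2 stood at 54.4 CPM and the other AC libraries at 8.81 to 25.8 CPM. The other 6 members differed by between -0.08 (Casp1) and 0.27 (Il1rn). At 24 h again 0 of 8 passed and none had an unadjusted p under 0.05, with 0.00796% of genes called higher and 0% lower. There Il1b differed by 0.20 (interval -0.45 to 0.85) and Il1rn by 0.74 (interval -0.26 to 1.74), from 6.85 to 25.7 CPM in AC and 4.23 to 18.5 in Luc. The lowest difference was that of Il33 (-0.55, interval -1.50 to 0.39), and Il1r2 differed by 0.54 (interval -0.68 to 1.76). Casp1, Il1rap, Il1r1 and Nlrp3 differed by -0.31, -0.15, -0.13 and 0.02. These intervals leave room for changes of more than 1 log2 unit in Il1rn, Il1r2 and Il33.

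At 48 h Il1r2 was the 1 member of 8 that passed, and it was lower in AC, where 12.1% of genes were called higher and 3.27% lower. Of all calls 78.7% were higher, and 50.6% under median-ratio scaling. Il1r2 measured 5.55, 6.98, 4.23 and 5.56 CPM in AC and 74.4, 12.6, 42.5 and 7.13 CPM in Luc. No library overlapped, but the closest pair was 6.98 and 7.13 CPM. By mean CPM, Luc was 6.12 times AC. The difference was -1.92 ± 0.51 (95% interval -2.97 to -0.86, adjusted p = 0.015, limma). It rested on 2 Luc libraries: without replicate 1 it was -1.38 and without replicate 3 -1.64 (both adjusted p = 0.073, limma), and without both, a choice made after the values were seen, -0.69 (adjusted p = 0.47, limma). With a replicate block it was -1.64 (adjusted p = 0.11, limma), and with these 2 groups alone adjusted p was 0.052. The neutrophil marker sum was 119 to 168 CPM in AC and 135 to 429 CPM in Luc, ranges that overlap. Of the neutrophil markers tested 1 of 7 was lower in AC and 6 were not called. Lcn2 was lower in AC too (-1.85 ± 0.47, adjusted p = 0.011, limma). The part of neutrophil content was not tested.

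The other 7 members did not pass at 48 h, and 6 of them had an unadjusted p above 0.05, the exception being Casp1 (0.40 ± 0.19, adjusted p = 0.15, limma). Their differences lay between 0.25 and 0.43, while the median over all genes was 0.14. Il1b was at 10.1 to 15.4 CPM in AC and 7.55 to 11.5 in Luc (difference 0.31, interval -0.25 to 0.87). Monocyte and macrophage markers summed to 521 to 707 CPM in AC and 283 to 412 in Luc, and fibroblast markers to 2165 to 3607 and 927 to 1760 CPM. Cardiomyocyte markers summed to 24344 to 32271 CPM in AC and 33192 to 48349 in Luc, and atrial markers to 1227 to 2966 and 533 to 1169 CPM. The AC and Luc libraries did not overlap in any of these 4 lists, narrowly so for cardiomyocyte and atrial markers. They overlapped in the neutrophil, endothelial, mast cell, lymphocyte and erythroid sums. By gene, 6 of 10 monocyte and macrophage and 5 of 8 fibroblast markers were higher in AC. Of the cardiomyocyte markers 2 of 8 were lower, and of the atrial ones 1 of 4 was higher. The part of these lists in the results was not tested. Of the other inflammasome genes 4 of 14 were higher in AC (Casp8, Naip2, P2rx7 and Panx1) and none lower, and of the IL-1 target genes 2 of 15 (Lcn2 and Saa3) were lower. Whether the AC effect differed between times was tested directly. None of the 8 members passed in any of the 3 pairs of times, the nearest being Il1r2 at 48 h against 24 h (-2.45 ± 0.78, adjusted p = 0.098, limma). Without Luc 48 h replicate 4, Il1r2 passed at 48 h against 24 h (adjusted p = 0.013, limma) and against 4 h (adjusted p = 0.02, limma), and without Luc 24 h library A Casp1 passed at 48 h against 24 h (1.01, adjusted p = 0.028, limma).

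**Figure D5:**
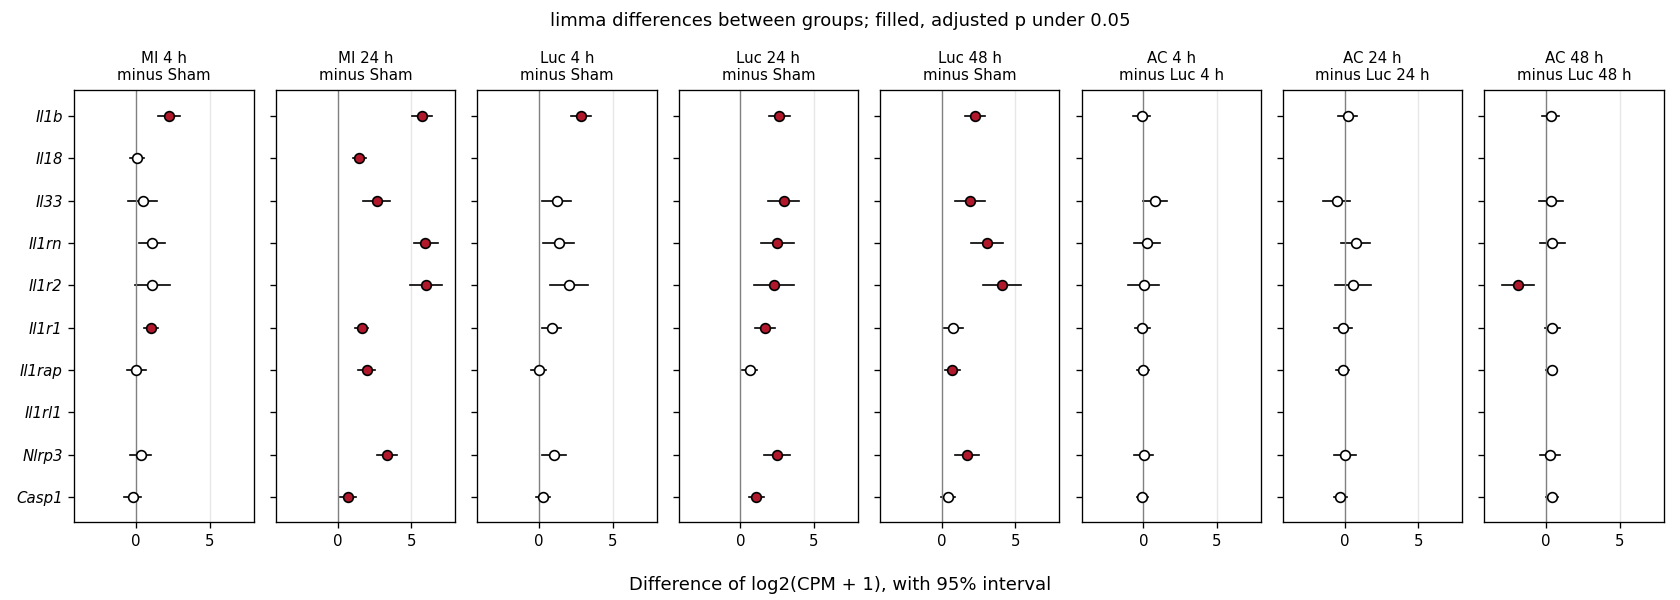
limma differences of log2(CPM + 1) with 95% intervals (horizontal) for each tested member (vertical) in 8 comparisons, filled where adjusted p was under 0.05. All 9 tested members are filled at MI 24 h against sham, and Il1r2 at 48 h (-1.92) is the only filled point among the AC minus Luc panels.

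Across libraries some genes tracked the members closely. Likeness was the lower of the Pearson correlations of log2(CPM + 1) over the 10 and the 24 libraries, among the 7351 genes whose mean reached 10 CPM in both tables. It is a description, since libraries of a group share their condition. For Il1b the 2 highest were Ccl2 and the protease gene Adamts4 (both 0.92), and for Il1rn the adhesion receptor Cd44 and the leukocyte receptor Lilrb4a (both 0.93). Nlrp3 had the oncostatin M receptor gene Osmr (0.95) and the chemokine Cxcl5 (0.93), and Il1r1 had Osmr (0.89) and the IL-4 receptor gene Il4ra (0.88). Il1r2 went with Hilpda (0.88) and Slc38a2 (0.87), Il33 with Gcnt2 (0.90) and Oasl2 (0.88), Il1rap with Cpne1 (0.93) and Adam9 (0.92), and Casp1 with Snx2 (0.85) and Tcirg1 (0.84). Between members, Il1b and Il1rn correlated at 0.98 over the 10 uninjected libraries and at 0.59 over the 24 of the modRNA table.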

How the data were processed

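Left ventricle RNA of 34 libraries was sequenced. Per the paper's methods, which describe the 10 uninjected libraries, the authors aligned single-end reads to mm10 with STAR, counted them per RefSeq gene in Partek Flow and normalised them by the trimmed mean method. Processing of the other 24 libraries is not given in the sources used here. The first deposited table holds CPM. In the second, the authors deposited a signal whose lowest value is 1 in every library, read as CPM + 1, so 1 was subtracted. Taking the lowest value above 0 as 1 read, the uninjected libraries held an estimated 12553519 to 18952669 reads. Many values were no whole multiple of it, so no count test was run. The depth of the others is unknown, since their lowest values are fractions of a read.

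Each table was fitted separately with limma 3.58.1 (lmFit, eBayes with trend) in R 4.3.3 on log2(CPM + 1), all groups together, for genes whose mean reached 1 CPM, with Benjamini-Hochberg adjustment over all genes and a threshold of 0.05. This understates the change of low genes. The script was tested on simulated data. Nothing says whether the samples of a group came from separate litters or days, so p-values measure the spread between these samples. Members, gene lists and motifs were chosen with earlier results of these data known. All 10 members are described, those under the filter by their levels. Of each pathway list, the up to 3 genes with the largest difference past the threshold at MI 24 h against sham are named, along with those otherwise singled out after their values were seen (Sigirr, Casp8, Naip2, P2rx7, Panx1 and Saa3). Alternatives were a pseudocount of 0.1, no filter, a stricter filter of 10 CPM, the compared groups alone, no trend, median-ratio and equal-total scaling, a replicate block, and each library left out. After the data were seen, the unfiltered differences of Il1rl1 and Il18 were also refitted with each library left out.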

Additional observations from a re-analysis of the deposited data

Results flagged for a closer look

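Of 50 sets of 4 libraries checked (10 genes in each of 5 groups), 1 had a library far from its fellows. Il1rl1 in MI 24 h library C was at 2.14 CPM, and the other 3 libraries of the group lay between 0.926 and 1.03 CPM, a gap of 0.913 of the whole range. About 1 in 20 such sets would be picked out by the rule in any case. The unfiltered increase of Il1rl1 at MI 24 h did not pass without this library (0.32 ± 0.15, adjusted p = 0.086, limma).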

How the results depend on the processing

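Values under 1 CPM rest on few reads, only 2 sham libraries anchor the modRNA table, and leaving 1 of them out leaves a single sham library, assumed to vary like the other groups. No member called in the report changed direction while staying called under any alternative. Of the results recomputed under another setting 832 kept their side of the threshold, 15 gained and 17 lost the call, and with 1 library left out 918 kept it, 9 gained and 25 lost it. Called members went from 2 to 4 at MI 4 h with a pseudocount of 0.1 and to 1 with a replicate block, and ranged from 1 to 2 with 1 library left out. At MI 24 h they went from 9 to 5, against sham and against MI 4 h, where a mean of 10 CPM was asked and fewer genes were tested. At Luc 4 h they went from 1 to 3 with a pseudocount of 0.1 and to 6 with the compared groups alone. From Luc 4 h to 24 h they went from 5 to 2 at 10 CPM and to 3 under both median-ratio and equal-total scaling, ranging from 3 to 6 with 1 library left out, and from Luc 24 h to 48 h from 3 to 1 under both scalings. For AC at 48 h the 1 member became 0 with a replicate block, with the groups alone and without both Luc libraries of highest Il1r2 (added after the data were seen), ranging from 0 to 1 with 1 library left out. The change of the AC effect from 24 to 48 h and from 4 to 48 h had 0 members, ranging from 0 to 1 with 1 library left out. The cause of these changes was not tested. Over all genes, calls went from 296 to 117 with a block and 715 with groups alone at MI 4 h, from 194 to 580 at Luc 4 h and from 3774 to 1504 at Luc 48 h with groups alone, and from 1926 to 479 with a block for AC at 48 h. At 10 CPM, with 7719 genes tested, they were 122, 2433 and 823 for these 3 comparisons. Same-numbered libraries did not deviate together, with correlations from -0.21 to 0.34 in 17 pairs, 6 of them over 0.1 and 7 best with their own number, so the replicate block compares only shared numbers. No paired analysis was possible for Luc against sham at 24 and 48 h or between Luc times because the block was the number within a time point, and these groups then share none.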
